A study of Mus musculus with 12 samples.

Results

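Glutathione transferases and antioxidant enzymes were followed as a set of 39 genes across Floxed and LKO livers. The set was given by gene symbol, and not by measured values, but with earlier results of these data known. The paper had already reported glutathione metabolism as a positively correlated gene set in LKO livers from these arrays. The set held 3 alpha, 7 mu, 1 pi, 3 theta, 3 kappa, omega and zeta and 2 microsomal glutathione transferases, and Gstcd. It also held 5 genes of glutathione synthesis and recycling, 3 glutathione peroxidases, Nfe2l2 and Keap1, 5 Nfe2l2 target genes and 4 other antioxidant enzymes. Probes were assigned by the RefSeq accession of the array design, and all 39 genes were found and were well above background on all 12 arrays, among 16915 genes tested. Livers came from male C57BL/6 mice aged 30 weeks, 6 Floxed and 6 LKO, each on its own single-color Agilent array. Floxed mice carried Phgdh flox/flox without Cre and were littermate controls. LKO mice carried Phgdh flox/flox together with Cre under the albumin promoter (Alb+/Cre;Phgdh flox/flox), so that Phgdh, the first enzyme of serine synthesis from glucose, is deleted in hepatocytes and not in the other cells of the liver. All mice were fed chow with 20% casein as its protein. The comparison asks how the loss of Phgdh in hepatocytes goes with gene expression in the liver. Here it covers enzymes that make or use glutathione, whose glycine and cysteine both draw on serine. The paper found no significant difference in the serine or glycine content of LKO livers.

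Glutathione is a tripeptide of glutamate, cysteine and glycine. Glutamate-cysteine ligase, made of the catalytic subunit Gclc and the modifier subunit Gclm, takes the rate-limiting step of its synthesis, and Gss adds the glycine. Glutathione transferases join glutathione to reactive compounds, glutathione peroxidases spend it to reduce peroxides, and Gsr returns the oxidized form to the reduced one. The liver is the main site of these reactions. Many of the genes are switched on by Nfe2l2 (Nrf2), which Keap1 marks for degradation until oxidants or electrophiles stop it, and which binds with small Maf proteins to the antioxidant response element.

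Levels are given as quantile-normalized intensity on the log2 scale, and a difference of 1 is a doubling. A gene counts as called where limma's p before adjustment was under 0.05, which is the study's own criterion, and the Benjamini-Hochberg adjusted p over all tested genes is given beside it. By this criterion 1413 of 16915 genes were called (8.35%), 832 of them higher (4.92%) and 581 lower (3.43%) in LKO mice. Scaling arrays to a common 75th percentile instead split the calls into 1127 higher and 316 lower. No gene passed limma's adjusted criterion (0%), and the methods' t-test called 1236 genes and 1 after adjustment. The groups did not overlap in 50 genes (0.296%). Floxed mice 1 to 4 shared slide 1 and LKO mice 3 to 6 shared slide 3, and slide 2 carried the other 2 mice of each genotype. Genotype and slide could be told apart only within slide 2, and with slide as a fixed block 317 genes were called (1.87%). Phgdh itself was at 5.18 ± 0.23 in Floxed and 4.70 ± 0.41 in LKO mice (mean ± SD, n = 6 each), a difference of -0.48. It was lower than in every Floxed mouse in the 4 LKO mice of slide 3, whereas LKO mice 1 and 2 lay within the Floxed range at 5.07 and 5.30. On slide 2 alone its difference was -0.05. The Phgdh probe was faint, at the 8.3rd percentile of mean intensity over the tested genes, with a limma p of 0.0179 (adjusted p = 0.451). The paper detected the deleted allele by PCR in LKO livers (6 mice of each genotype), and reported less Phgdh mRNA and protein there. It does not state whether those were the mice on the arrays. All 5 hepatocyte markers (Alb, Apoa1, Fgb, Serpina1a and Ttr) were measured well above background on every array. In whole liver, fewer cells of a type and less RNA per cell cannot be told apart.

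The antioxidant response element was searched for as its core, TGACNNNGC, and the reverse complement GCNNNGTCA, in RefSeq promoter windows of GRCm38.p6 that run from 250 bases before to 50 bases after the start of transcription. The core was present in 12.4% of all 32851 windows. Windows were at hand for 34 of the 39 members (not for Gclc, Gsr, Gsta4, Gstt2 and Hmox1). Of the 48 windows of the members 22.9% held the core, in 11 genes: Gsta3, Gstm5, Gstm7, Mgst1, Gclm, Ggct, Nfe2l2, Srxn1, Prdx1, Txnrd1 and Sod1. The match in Prdx1 also holds the AP-1 site TGACTCA, read on the other strand. Examples from a subunit of the ligase, a thioredoxin reductase, a peroxiredoxin and a pair of transferases are shown with 10 bases on either side, on the strand of the gene and with the core in capitals. They lie at chr3:122245413-122245441 (Gclm, plus strand), chr10:82859104-82859132 (Txnrd1, plus strand), chr4:116685456-116685484 (Prdx1, plus strand), chr1:21240454-21240482 (Gsta3, plus strand) and chr3:107931725-107931753 (Gstm7, minus strand).
Gclm: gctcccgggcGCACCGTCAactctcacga
Txnrd1: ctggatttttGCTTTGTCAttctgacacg
Prdx1: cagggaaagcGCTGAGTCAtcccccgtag
Gsta3: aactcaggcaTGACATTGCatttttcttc
Gstm7: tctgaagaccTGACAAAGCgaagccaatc

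The 250 bases before the start are printed for the members that the comparison turns on, namely the 3 called genes and Gstm3, at chr3:108017974-108018223 (Gstm1), chr3:107969175-107969424 (Gstm3), chr6:54992868-54993117 (Ggct) and chr3:133092040-133092289 (Gstcd), all 4 on the minus strand and read 5′ to 3′ along the gene. Capitals mark the core. It was found upstream of Ggct, and these letters were not in the bases shown for Gstm1, Gstm3 and Gstcd. Ggct also held the core at position 6 after the start, outside the bases shown. For Gstm1 and Gstcd 2 windows each were listed, and only the first is shown.
Gstm1: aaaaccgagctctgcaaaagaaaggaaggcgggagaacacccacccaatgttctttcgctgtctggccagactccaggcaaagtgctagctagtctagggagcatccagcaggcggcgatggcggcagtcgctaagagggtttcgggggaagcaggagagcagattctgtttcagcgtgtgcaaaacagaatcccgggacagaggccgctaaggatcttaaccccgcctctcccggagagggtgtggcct
Gstm3: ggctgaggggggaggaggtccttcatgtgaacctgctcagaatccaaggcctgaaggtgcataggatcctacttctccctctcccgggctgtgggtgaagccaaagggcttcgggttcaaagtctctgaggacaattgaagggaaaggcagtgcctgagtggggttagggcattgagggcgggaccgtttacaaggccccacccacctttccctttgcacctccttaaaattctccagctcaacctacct
Ggct: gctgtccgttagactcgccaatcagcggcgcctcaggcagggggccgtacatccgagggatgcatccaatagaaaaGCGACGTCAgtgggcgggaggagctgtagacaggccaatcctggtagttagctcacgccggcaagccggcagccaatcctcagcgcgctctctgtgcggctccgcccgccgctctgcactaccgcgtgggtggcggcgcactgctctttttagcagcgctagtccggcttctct
Gstcd: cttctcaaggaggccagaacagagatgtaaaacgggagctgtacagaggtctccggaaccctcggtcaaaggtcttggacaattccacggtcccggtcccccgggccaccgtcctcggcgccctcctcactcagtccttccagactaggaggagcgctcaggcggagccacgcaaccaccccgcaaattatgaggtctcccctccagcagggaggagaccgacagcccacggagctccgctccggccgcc

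Among the 39 members 3 were called (7.69%), against 8.35% of all tested genes. The share called depended on intensity, at 2.07% of the brightest 20% of genes and 19.6% of the dimmest 20%. Gstm1, a mu-class transferase, and Ggct, which breaks gamma-glutamyl amino acids down to oxoproline, were higher in LKO mice, and Gstcd, a protein with a transferase-like domain, was lower. None of the 3 passed the adjusted criterion. In mean intensity Gstm1 lay at the 99.1st percentile of the tested genes, Ggct at the 63.6th and Gstcd at the 1.05th. Gstcd was the only member whose groups did not overlap, and over all 16915 tested genes 50 did not (0.296%). The remaining 36 differed by -0.39 to 0.29, and for 25 of them the 95% confidence interval of the difference lay within -0.5 to 0.5, while the other 11 (Gsta2, Gsta4, Gstm2, Gstm3, Gstp1, Gstt3, Mgst3, Gss, Gpx3, Nqo1 and Hmox1) had wider or shifted intervals.

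**Figure D1:**
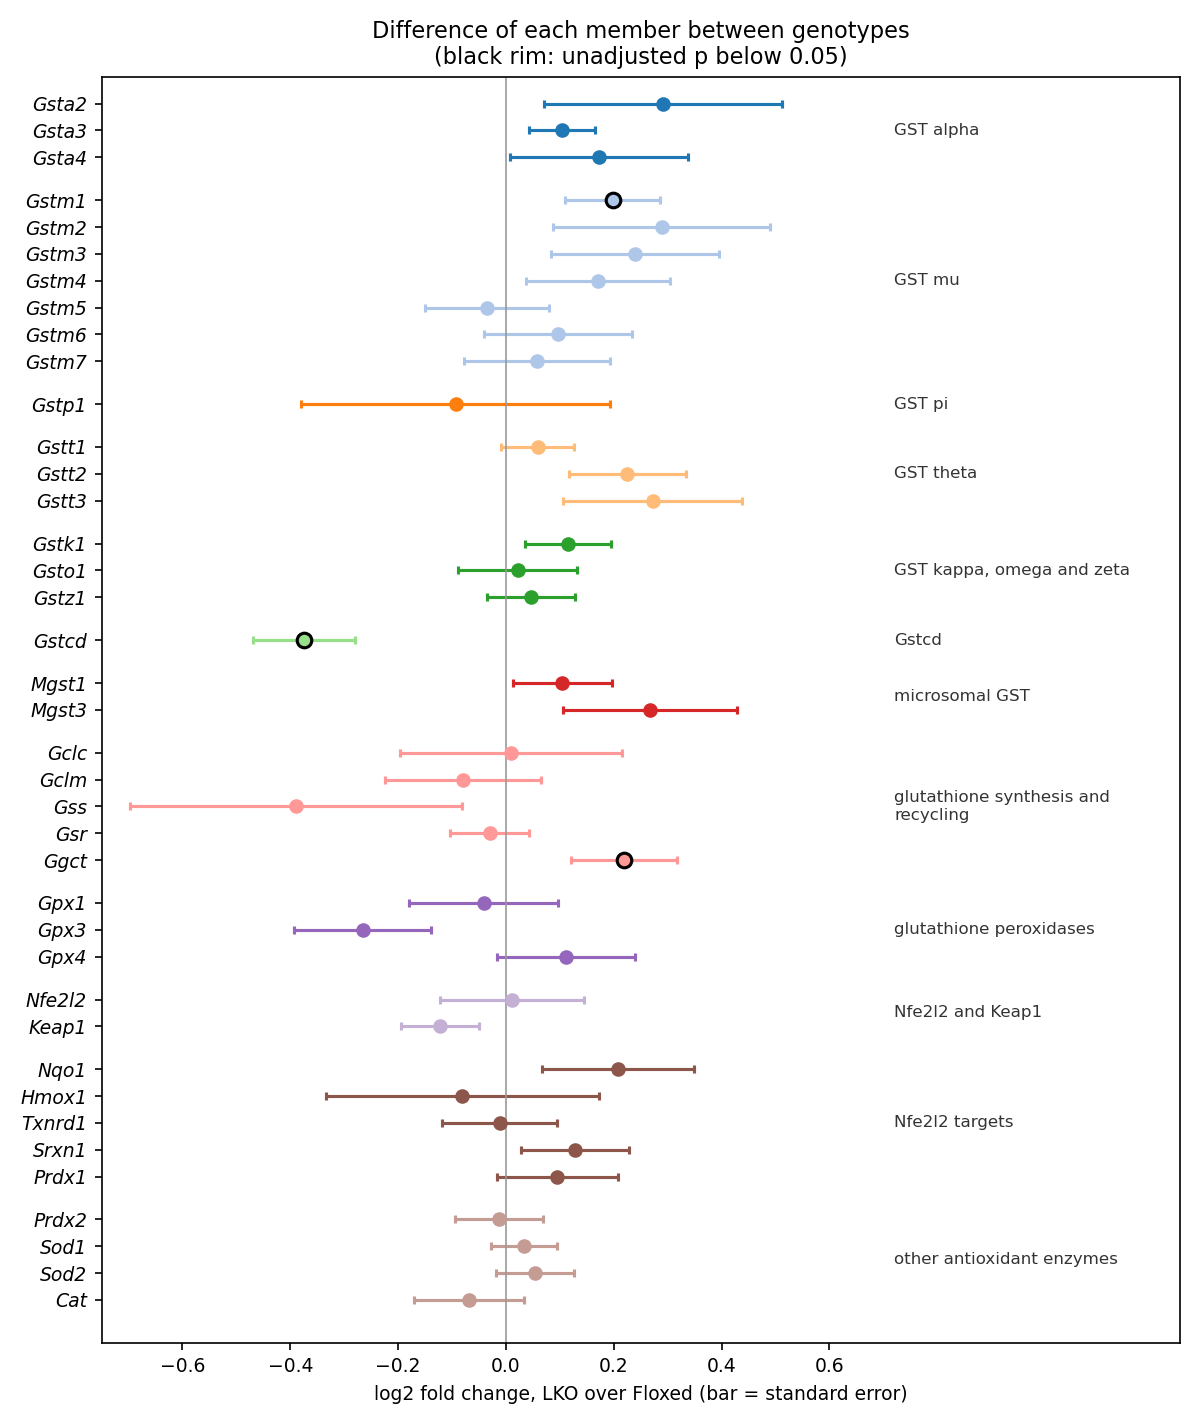
Log2 fold change of LKO over Floxed for each of the 39 members, grouped by class, with the standard error as a bar and a black rim for the 3 called genes. Of the 19 transferases, 17 lie right of 0, from 0.02 (Gsto1) to 0.29 (Gsta2), and Gstcd lies on the left at -0.37.

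The alpha class conjugates many lipid peroxidation products and drugs, and all 3 members measured were higher in LKO mice without being called. Gsta3, an abundant liver transferase, ran from 17.30 over a median of 17.35 to 17.47 in Floxed mice and from 17.40 over 17.48 to 17.55 in LKO mice. The groups overlapped narrowly. Gsta3 lay at the 99.6th percentile of mean intensity, and its residual spread after quantile normalization was among the smallest on the array (0.698th percentile). Its difference was 0.10 with a standard error of 0.062. The limma p, which draws small variances toward those of other genes, was 0.116 (adjusted p = 0.752), and the two-sided exact permutation p over 924 arrangements was 0.0216, unadjusted and 1 of 39 such tests. Gsta3 was called by the methods' t-test and with no filter on dim probes, and in none of the other 11 settings. A further Gsta3 probe gave 0.12. Gsta2 differed by 0.29 (SE 0.222) and Gsta4, which acts on hydroxynonenal, by 0.17 (SE 0.164). Their Floxed mice spanned 13.57 to 14.94 and 9.80 to 10.68, and these ranges took in 5 and 6 of the 6 LKO mice.

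The 7 mu-class genes sit side by side on chromosome 3 in the order Gstm5, Gstm7, Gstm6, Gstm3, Gstm2, Gstm1 and Gstm4, with 3 pseudogenes between them. They are close in sequence, so probes may share signal among them, and the probe sequences were not used here. In Gstm1 the Floxed mice ran from 16.35 over a median of 16.60 to 16.81, and the LKO mice from 16.66 over 16.73 to 16.99. Each LKO mouse was above 5 of the 6 Floxed mice, and Floxed mouse 2 was as high as the LKO mice. The difference was 0.20 with a standard error of 0.088, a fold of 1.15. It was called at a limma p of 0.0425 (adjusted p = 0.578), and the two-sided exact permutation p was 0.0303. The difference was 0.24 on slide 2 and 0.18 between slides 3 and 1. Leaving out single mice gave 0.15 to 0.24, and the call was kept only without Floxed mouse 2, LKO mouse 3, LKO mouse 5 or LKO mouse 6. Of 13 other settings 6 kept the call. It was lost with scaling to the 75th percentile (0.15), with normexp (0.14), with the mean of both probes, with slide as a fixed block (limma p of 0.175), on slide 2 alone, on slides 1 and 3 alone and with the replicate number as a block (limma p of 0.065). These settings are not separate checks. Changing the filter kept the same Gstm1 probe, and slide as a fixed block gave the difference of slide 2 alone. A second probe of Gstm1 gave the same difference, 0.20, at a limma p of 0.231.

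Gstm3 has 2 probes that were well above background on all arrays, and they differed in the size of the change. The brighter one, which represents the gene by rule, ran from 12.26 over 12.96 to 13.32 in Floxed and from 12.95 over 13.09 to 13.49 in LKO mice, a difference of 0.24 (SE 0.155, adjusted p = 0.798). Its groups overlapped widely. The other probe was singled out after its values were seen. In it the Floxed mice ran from 12.34 over a median of 12.65 to 12.78 and the LKO mice from 12.80 over 13.16 to 13.47. All 6 LKO mice were above all 6 Floxed mice. The difference was 0.55 with a standard error of 0.133, a fold of 1.46 (95% interval 0.26 to 0.84 on the log2 scale). Among 20403 probes fitted on their own its limma p was 0.00116 (adjusted p = 0.244), and the two-sided exact permutation p was 0.00216, the smallest that 924 arrangements allow. Of those probes 8.54% were called and 69 had groups that did not overlap (0.338%), and of 55 member probes 4 were called (7.27%). The difference was 0.48 within slide 2 and 0.58 between slides 3 and 1. It was not called with slide as a fixed block (limma p of 0.0774) or on slide 2 alone. It was called in the other 9 of 11 settings, and in each of the 12 fits that left out 1 mouse, at 0.48 to 0.62. Averaging both probes gave Gstm3 a difference of 0.39 and a limma p of 0.00944.

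**Figure D2:**
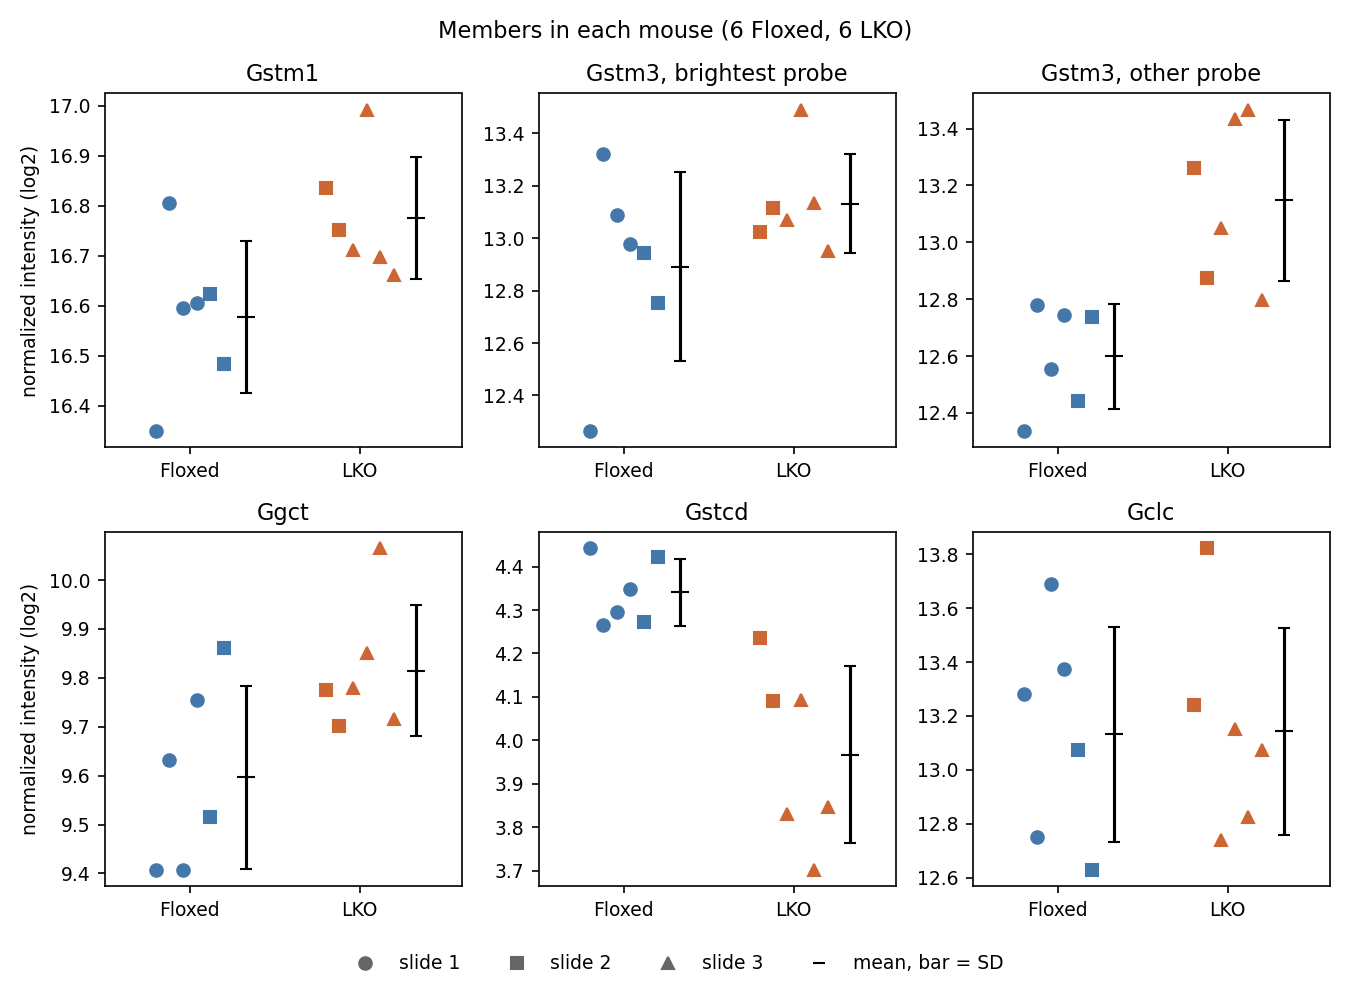
Quantile-normalized log2 intensity of each mouse for Gstm1, both Gstm3 probes, Ggct, Gstcd and Gclc, with the symbol giving the slide and a bar the mean ± SD of 6 mice. The groups separate for the second Gstm3 probe and for Gstcd, whereas in Gclc LKO is 0.68 higher within slide 2 and differs by -0.33 between slides 3 and 1.

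Of the other mu genes, Gstm2 differed by 0.29 (SE 0.202) and its 3 probes gave 0.28 to 0.29, but on slide 2 its difference was -0.06 against 0.46 between slides 3 and 1. Gstm4 differed by 0.17 (SE 0.133), on slide 2 by 0.13. Gstm6, Gstm7 and Gstm5 were at 0.10, 0.06 and -0.03, and the 2 further probes of Gstm6 had the opposite sign. Of the 15 probes of the mu class, which belong to 7 genes, 12 were higher in LKO mice. Over all 20403 kept probes 9620 were higher and 8.54% were called. In the mu class 2 were called. These were the brighter Gstm1 probe and the second Gstm3 probe, which was singled out after its values were seen.

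In the remaining transferase classes no member was called. Gstp1, the pi-class enzyme, ran from 14.89 over 15.83 to 16.25 in Floxed and from 14.80 over 15.59 to 16.20 in LKO mice. Its groups overlapped over nearly their whole range, and its residual spread was at the 95.5th percentile of all genes. The difference was -0.09 (SE 0.287, 95% interval -0.71 to 0.53), and it was 0.56 on slide 2 and -0.42 between slides 3 and 1. In the theta class, whose Gstt1 acts on small halogenated compounds, Gstt2 differed by 0.23 (SE 0.108, adjusted p = 0.619), Gstt3 by 0.27 and Gstt1 by 0.06. Gstt2 was 0.26 higher within slide 2 as well, and Gstt3 was at -0.08 there. Gstk1, a mitochondrial and peroxisomal enzyme, Gstz1, which acts in tyrosine breakdown, and Gsto1 differed by 0.12, 0.05 and 0.02. The microsomal Mgst1 and Mgst3 differed by 0.10 and 0.27, of which Mgst3 kept 0.39 on slide 2.

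The lowest p among the members was that of Gstcd, and it came from a faint probe. Floxed mice ran from 4.26 over a median of 4.32 to 4.44, and LKO mice from 3.70 over 3.97 to 4.24. All 6 LKO mice were below all 6 Floxed mice, and LKO mouse 1 was within 0.03 of the lowest Floxed mouse. The difference was -0.37 with a standard error of 0.095, a fold of 0.771, at a limma p of 0.00164 (adjusted p = 0.273) and a two-sided exact permutation p of 0.00216. Its mean intensity lay at the 1.05th percentile of the tested genes, and among the dimmest 20% of genes 19.6% were called. With normexp background correction the difference was -0.10 and was no longer called. Nor was the difference called with slide as a fixed block or on slide 2 alone. It was -0.18 within slide 2 and -0.47 between slides 3 and 1, and it was called in each of the 12 fits that left out 1 mouse. A second Gstcd probe was well above background on 1 array only and was not tested.

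Glutathione synthesis and recycling showed no common direction, with 2 of 5 genes higher. In Ggct the Floxed mice ran from 9.41 over 9.57 to 9.86 and the LKO mice from 9.70 over 9.78 to 10.06. Floxed mice 4 and 6 lay among the LKO mice and the other 4 below them. The difference was 0.22 with a standard error of 0.098, a fold of 1.16, at a limma p of 0.0446 (adjusted p = 0.586) and a two-sided exact permutation p of 0.0476. On slide 2 it was 0.05, against 0.30 between slides 3 and 1, and the call was kept only without Floxed mouse 4, Floxed mouse 6, LKO mouse 2 or LKO mouse 6. It was lost with slide as a fixed block (limma p of 0.780), on slide 2 alone and with the replicate number as a block (limma p of 0.0731).

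Gclc, the catalytic subunit of the ligase, ran from 12.63 over 13.18 to 13.69 in Floxed and from 12.74 over 13.11 to 13.82 in LKO mice, with a difference of 0.01 (SE 0.206, 95% interval -0.43 to 0.46, adjusted p = 0.997). Slide 2 and the other slides went opposite ways. Within slide 2 the LKO mice were 0.68 higher, which was called with slide as a fixed block (limma p of 0.0406), and between slides 3 and 1 the LKO mice were lower by -0.33. Whether these differences differ from each other was not tested. Gclm, the modifier subunit, ran from 9.43 over 9.72 to 10.05 in Floxed and from 9.13 over 9.82 to 9.91 in LKO mice. Its difference was -0.08 (SE 0.144) and it was -0.05 on slide 2. Gsr, the reductase, ran from 12.09 over 12.22 to 12.30 in Floxed and from 12.02 over 12.19 to 12.31 in LKO mice, a difference of -0.03 with a 95% interval of -0.19 to 0.13. Gss had the widest span of the 39 members, 4.45-fold over the 12 mice, with LKO mouse 5 at 8.23 and every other mouse at 9.10 or above. Its difference was -0.39 (SE 0.308), and 0.06 on slide 2.

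The 3 glutathione peroxidases were not called. Gpx1, the main cytosolic peroxidase of the liver, ran from 17.20 over 17.52 to 17.71 in Floxed and from 16.90 over 17.56 to 17.71 in LKO mice. LKO mouse 5 was the lowest of all and Floxed mouse 6 the next, and the difference was -0.04 (SE 0.138). Gpx4, which reduces lipid peroxides in membranes, differed by 0.11. Gpx3, a secreted peroxidase, differed by -0.27 (SE 0.127, adjusted p = 0.618), and by -0.29 on slide 2. Its LKO mice lay between 4.92 and 5.28 and its Floxed mice between 4.90 and 5.81.

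Neither regulator was called. Nfe2l2 transcript ran from 10.54 over 10.80 to 11.31 in Floxed and from 10.58 over 10.89 to 11.05 in LKO mice, a difference of 0.01 with a 95% interval of -0.28 to 0.30. Keap1 ran from 11.14 over 11.38 to 11.42 in Floxed and from 11.11 over 11.21 to 11.29 in LKO mice. Floxed mice 4 and 5 lay among the LKO mice and the other 4 above them, a difference of -0.12 (SE 0.072, limma p = 0.116, two-sided exact permutation p = 0.0541), which was -0.00024 on slide 2. These are transcript levels, and Nfe2l2 is controlled mainly through its protein.

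None of the 5 Nfe2l2 targets was called. Nqo1, a quinone reductase often used as a readout of Nfe2l2, ran from 7.36 over 7.50 to 7.96 in Floxed and from 7.40 over 7.68 to 8.15 in LKO mice, a difference of 0.21 (SE 0.140, adjusted p = 0.824) and of 0.31 on slide 2. Hmox1, the inducible heme oxygenase, ran from 6.67 over 7.32 to 8.08 in Floxed and from 6.46 over 7.28 to 7.98 in LKO mice. Its groups overlapped over nearly their whole range, the difference was -0.08 (SE 0.253), and its 2 probes had opposite signs. Srxn1, which repairs peroxiredoxins, Prdx1 and Txnrd1 differed by 0.13, 0.10 and -0.01. Of the enzymes outside these groups, Cat (catalase) ran from 13.36 over 13.56 to 13.65 in Floxed and from 13.15 over 13.49 to 13.76 in LKO mice, with a difference of -0.07 (SE 0.102). Sod1, Sod2 and Prdx2 differed by 0.03, 0.05 and -0.01, and Sod1 had the narrowest span of all 39 members, 1.14-fold. Sod1 lay at the 99.6th percentile of mean intensity. After quantile normalization the hepatocyte marker Serpina1a, brighter still, was at 18.768 in every mouse, whereas Gpx1, also brighter than Sod1, spanned 1.76-fold. The part of normalization in these spans was not tested.

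By class, without Gstcd, 17 of 19 transferases were higher in LKO mice with a median difference of 0.12. Among the 19, 1 was called (5.26%), against 8.35% of all tested genes and 2.07% of the brightest 20%. The members were listed with earlier results of these data known. Over all tested genes 48.8% were higher and the median was -0.0035, and over the brightest 20% of genes 54.7% were higher and the median was 0.0089. The other 20 members had 9 higher and a median of -0.01. For the Nfe2l2 targets together with Gclc and Gclm it was 4 of 7 and 0.01. The count of 17 was the same with scaling to the 75th percentile, with normexp and in the authors' table, and leaving out single mice gave 15 to 19. On slide 2 alone it was 13 of 19, with a median of 0.13, where 54.6% of all genes were higher. Between slides 3 and 1 it was 16 with a median of 0.18, where 46.3% of all genes were higher. Of the 19, 10 were higher in both parts.

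**Figure D3:**
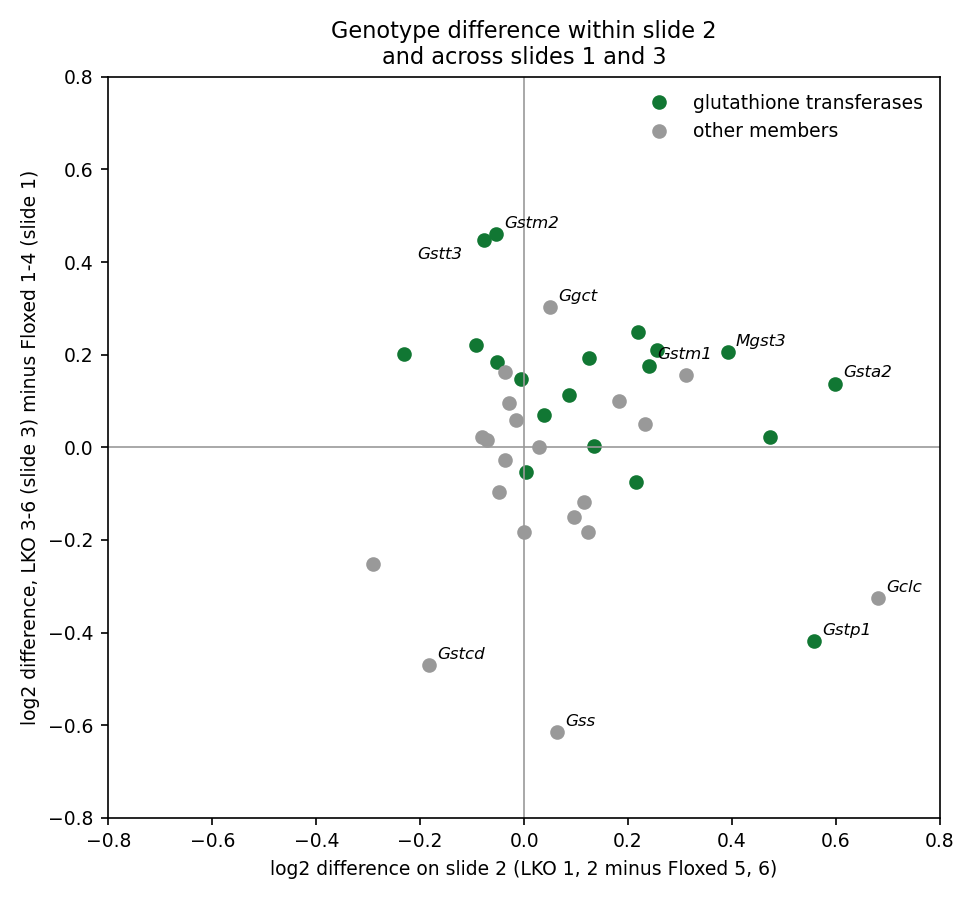
Log2 difference of each member within slide 2 (horizontal axis) and between the LKO mice of slide 3 and the Floxed mice of slide 1 (vertical axis), with transferases in green and the other 20 members in grey. The transferases lie mostly above the horizontal line, with 10 of 19 at the upper right, and Gstp1 and Gclc lie at the lower right.

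The class means of single mice overlapped between genotypes. The mean deviation of the 19 transferases from their own means ran from -0.26 to 0.13 in Floxed mice, with a mean of -0.07 and an SD of 0.13, and from -0.01 to 0.19 in LKO mice, with a mean of 0.07 and an SD of 0.070. Floxed mouse 1 was the lowest, and Floxed mouse 2 was above 5 of the 6 LKO mice. For the Nfe2l2 targets with Gclc and Gclm the Floxed mice ran from -0.09 to 0.07 and the LKO mice from -0.15 to 0.14, and the LKO mice thus covered the whole Floxed range.

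**Figure D4:**
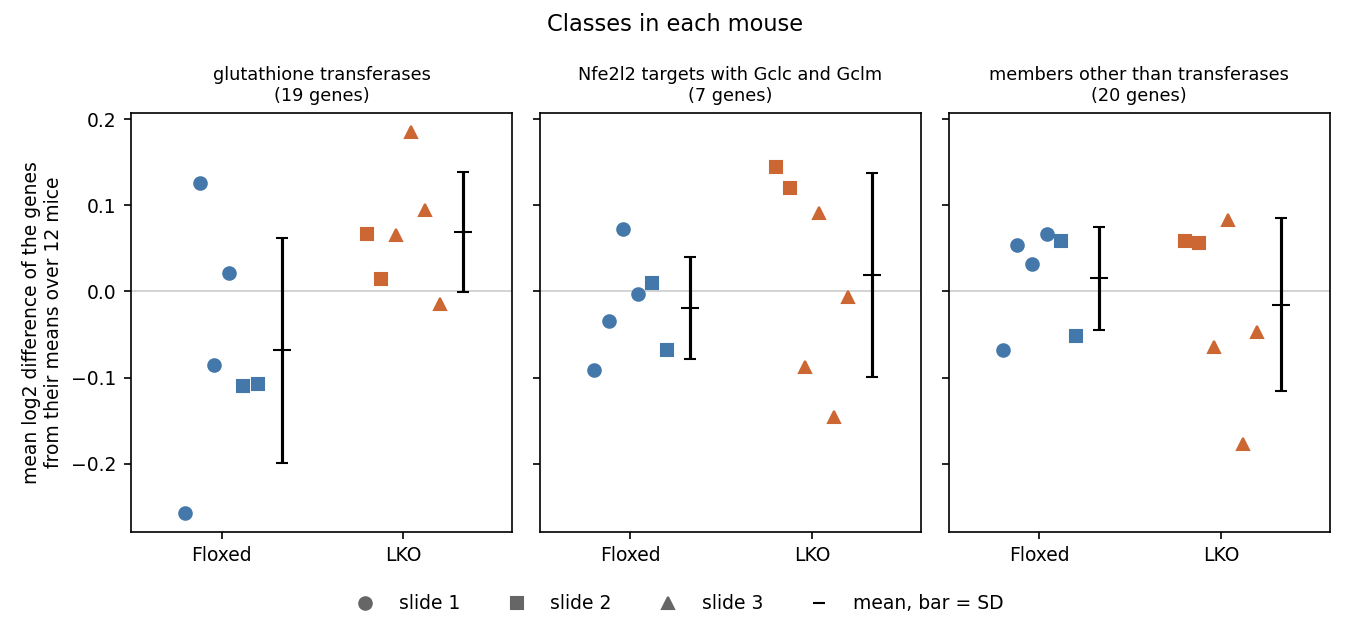
Mean log2 difference of the genes of a class from their own means over 12 mice, 1 point per mouse, for the 19 transferases, the 7 Nfe2l2 targets with Gclc and Gclm and the 20 members other than transferases, with the slide as symbol and mean ± SD as bars. The transferase means are -0.07 in Floxed and 0.07 in LKO mice, and in the Nfe2l2 targets the LKO mice cover the whole Floxed range.

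Several members had their extremes in the same mice, in both genotypes. The span over the 12 mice had a median of 1.61-fold over the 39 members. Floxed mouse 1, Floxed mouse 6 and LKO mouse 5 were the 3 lowest in Gstp1 (14.96, 14.89 and 14.80) and in Gss (9.34, 9.10 and 8.23), and the same 3 were the highest in Gstm2 (14.02, 14.08 and 14.52) and in Gstm6 (14.23, 14.04 and 14.40). Floxed mouse 1 held the lowest value of 11 members, LKO mouse 4 the highest of 9, and LKO mouse 5 the lowest of 8 and the highest of 7. Floxed mouse 1, Floxed mouse 6 and LKO mouse 5 were on 3 different slides. The array of LKO mouse 5 had the lowest 75th percentile of intensity before normalization (239, against up to 473), and its part in these values was not tested.

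**Figure D5:**
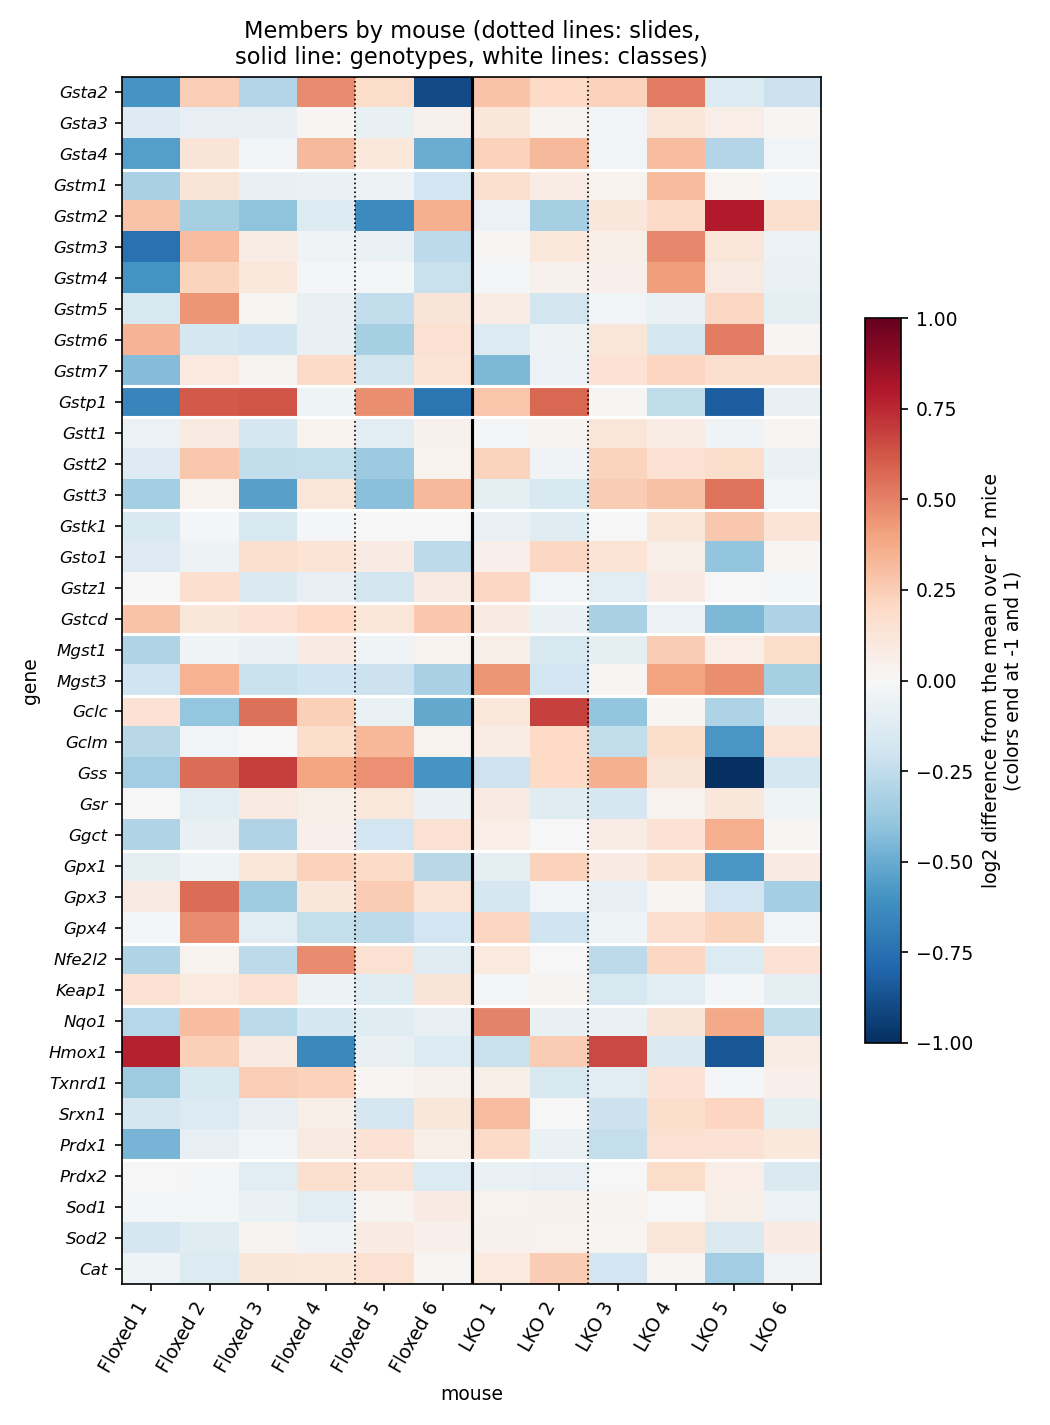
Log2 difference of each member from its mean over 12 mice, with mice as columns (dotted lines between slides, a solid line between genotypes) and genes as rows, colors ending at -1 and 1. The strongest colors include Gss in LKO mouse 5, which is beyond the scale, and Gsta2 in Floxed mouse 6 (-0.90), and no row except Gstcd splits fully by genotype.

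Further genes of the pathway were taken from 3 lists, chosen with earlier results of these data known. Of 72 genes listed 65 were tested, 51 were higher in LKO mice (over all tested genes 48.8% were), and 1 was called, against the 8.35% of all genes. This was Abcc4, an efflux pump and Nfe2l2 target, with a difference of 0.40 (SE 0.147, a limma p of 0.0166, adjusted p = 0.438) and of 0.25 on slide 2. By list, 21 of 27 glutathione genes, 17 of 23 Nfe2l2 targets and small Maf partners, and 13 of 15 thioredoxin, peroxiredoxin and superoxide genes were higher, with medians of 0.04, 0.11 and 0.08, and on slide 2 alone, where 54.6% of all genes were higher, the counts were 13, 12 and 9.

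Markers of other cells and of liver zones were read from the same fit, in which 8.35% of all tested genes were called. Of the endothelial markers 4 of 5 were higher, among them Pecam1 by 0.70 (0.04 on slide 2), which was called, and their summed intensity ran from 14687 to 17380 in Floxed and from 14582 to 22548 in LKO mice. Of the markers of hepatocytes around the central vein, the zone where many transferases are expressed, 5 of 7 were higher, among them Lgr5 by 0.30 (0.61 on slide 2), which was called. Cyp2e1 (-0.06) and Cyp1a2 (-0.11) were lower, and on slide 2 Glul was at -0.39 and Oat at -0.63. Their summed intensity ran from 230110 to 284290 in Floxed and from 191800 to 291360 in LKO mice. All 5 measured Kupffer cell and macrophage markers were lower in LKO mice, with summed intensity from 10362 to 28151 in Floxed and from 8950 to 22163 in LKO mice, and none was called. On slide 2, 4 of the 5 were higher. All 4 blood markers were lower as well, with none called, and all 4 were higher on slide 2. Of 5 acinar markers 2 were well above background on all arrays, both higher, with Cel at 0.54, which was called, and a summed intensity from 318 to 597 in Floxed and from 341 to 658 in LKO mice. Of the 5 stellate cell markers 4 were lower and none was called, with summed intensity from 17205 to 21339 in Floxed and from 16101 to 23646 in LKO mice. Of the markers of hepatocytes around the portal vein 3 of 6 were higher, and of the measured lymphocyte markers 2 of 4. The 2 measured cholangiocyte markers were higher and the 1 measured adipocyte marker was lower. In these 4 lists none was called. Within slide 2, with 2 mice of each genotype, 2 of the 7 central vein markers were higher, where 54.6% of all genes were. The part of these markers in the results was not tested.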

How the data were processed

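RNA from whole liver of 6 Floxed and 6 LKO mice was measured on 12 one-color Agilent arrays, grouped by genotype as the labels give it, with 1 array per mouse. The methods name RiboPure for the RNA and the labels name TRIzol with a Promega column. The authors deposited spot intensity values from Agilent Feature Extraction (10.7.1.1 in the file headers, 9.5.1.1 in the submitters' notes), background-subtracted and detrended with arrays left on their own scales, and a normalized probe intensity table, which was used as an alternative. The mean spot intensity was not used here, so normexp took the median.

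From the deposited files, control spots (1377 per array) were left out, log2 values of the processed signal were quantile-normalized over 43020 spots, outlier spots (0.298%) were set missing, and spots were averaged to 39429 probes. Probes that all 12 arrays marked as well above background were kept, 20404 in number (for a probe on several spots, on at least 0.5 of them) and the brightest represented its gene. Array 75th percentiles ran from 239 to 473. The number of arrays limits the precision. Genes were named through RefSeq (GRCm38.p6), which matched 94.3% of 28389 accessions. The array was designed on another build, so gene coordinates are given for RefSeq promoter windows only.

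Genotypes were compared with limma 3.58.1 in R 4.3.3 (lmFit, eBayes) without covariates, on all genes, and single members also by exact permutation, two-sided, over 924 arrangements. The fit was tested on simulated data. Alternatives covered normalization, background correction, the authors' table, filters, outliers, probe choice, slide, replicate number, the methods' t-test, thresholds and each mouse left out. They share most of their data, so a count of settings is not a count of independent checks. Members and lists were chosen with earlier results of these data known. All members were accounted for, with values in full for those called, those whose groups did not overlap, and Gstm1, Gclc, Gclm, Gsr, Gpx1, Nfe2l2, Keap1, Nqo1, Hmox1, Gstp1, Gsta3 and Cat. The labels give each array its own mouse.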

Additional observations from a re-analysis of the deposited data

Results flagged for a closer look

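In 8 of 78 groups of 6 mice, 1 mouse lay apart from the other 5 past Dixon's 95% critical value for the gap over the range. Chance alone gives about 1 in 20 groups, here 3.9. LKO mouse 4 was the highest of its group in the mu-class neighbours Gstm3 (13.491) and Gstm4 (12.071). LKO mouse 5 was the lowest in Gsto1 (13.452) and Gss (8.2281). Floxed mouse 2 was the highest in Mgst3 (11.244), Gpx4 (15.787) and Nqo1 (7.9618). Floxed mouse 1 was the lowest in Prdx1 (14.461). Of these members none was called. Without Floxed mouse 2 the differences of Mgst3, Gpx4, Nqo1 and the brighter Gstm3 probe were called as higher in LKO mice. Floxed mouse 2 was the highest Floxed mouse in each of these, so leaving it out had to raise the differences. Without it 7 members were called (17.9%), the most of the fits that left out 1 mouse, against 10.1% of all genes.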

How the results depend on the processing

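Against 1413 genes called, 2791 were called with no filter on dim probes, 317 with slide as a fixed block, 512 on slide 2 alone, 0 after Benjamini-Hochberg adjustment and 91 with a required log2 change of 1 or more in size. Leaving out single mice gave 1103 to 1837. Of the members, 3 were called (7.69%, against 8.35% of all genes). With normexp it was 1 (2.56%, against 8.4% of all genes). With slide as a fixed block and on slide 2 alone it was 1 (2.56%, Gclc in both), against 1.87% and 3.03% of all genes. With slide as a random block (correlation -0.0656) it was 5 (12.8%, against 11.4% of all genes). It was 0 after adjustment, as for all genes, and 0 with the fold threshold (against 0.538% of all genes). Without single mice it was 1 to 7 (2.56% to 17.9%, against 6.52% to 10.9% of all genes). Of the other genes of the pathway, 1 was called (1.54%). It was 2 with scaling to the 75th percentile, 2 with normexp, 2 with no filter and 2 with the filter on positive and significant signal. The highest count was 5, on slides 1 and 3 (7.69%, against 11.5% of all genes). With the fixed block, on slide 2, after adjustment and with the fold threshold it was 0, and without single mice 1 to 4. Of 998 values of single members and the second Gstm3 probe under an alternative, 946 stayed on their side of the threshold, or changed sign without being called, 31 lost the call, 21 gained it, and none changed sign while called. The alternatives for the second Gstm3 probe, and single kept probes in place of genes, were added after the data were seen. The replicate numbers were not taken as pairs. Same-numbered mice have neighbouring animal numbers and the Floxed mice were littermates of LKO mice, but no label states that a number marks a litter. The deviations of same-numbered mice correlated at -0.235 to 0.317, and 3 of 12 mice correlated best with their own number. With the replicate block 1428 genes and 1 member (Gstcd) were called. The cause of these changes was not tested. On a faint probe such as that of Gstcd, signal over background limits the value.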
